A study of Homo sapiens with 6 samples.

Results

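The 10 genes described here have products that make or guard the 3′ end of histone mRNAs, and were followed in Caco-2 cells in which the gene CBS had been targeted. The 10 members were the rows of the deposited gene table with the symbols SLBP, LSM10, LSM11, NPAT, CASP8AP2, ERI1, SYMPK, CPSF2, CPSF3 and CSTF2, and all 10 were found among its 16781 genes and were among the 13028 genes with enough reads for a test. Caco-2 is an established cell line that was derived from a colon adenocarcinoma. The CBS KO group held 3 libraries of cells that had received a lentivirus with Cas9, a guide against CBS and a puromycin resistance gene and had then been selected with puromycin, and the WT group held 3 libraries of unmodified cells. Per the series' text the knockout was scored on puromycin-resistant cells by western blot, and no single clone is named. No group with the virus but without the guide was analysed here, so infection, selection and loss of CBS cannot be told apart. The labels do not state separate cultures, and p-values therefore measure the spread between these libraries only, which may be technical. In bulk libraries, fewer cells that express a gene and less of its RNA per cell cannot be told apart.

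The libraries held 12805180 to 14307287 estimated counts in CBS KO and 16097680 to 16176745 in WT. CBS itself stood at 22.8 ± 3.81 counts per 1e6 reads (CPM) in CBS KO and 50.8 ± 2.11 CPM in WT (SD, n = 3 each), so its mRNA was reduced and not absent. All 7 intestinal epithelial markers had enough reads for a test, 4 of them called higher and 2 lower, beside 38.4% and 38.9% of all genes. With TPM 2 were higher and 4 lower, beside 15.4% and 66.1% of all genes. The summed level of the 7 markers was 6339 to 6853 CPM in CBS KO and 5084 to 5678 CPM in WT. EPCAM and KRT8 were higher (log2 fold change 1.09 and 0.50, the second -0.08 with TPM) and the transcription factor gene CDX2 lower (-1.94). Of 10 listed markers of leucocytes, endothelium and fibroblasts, 8 were in the table and 4 had enough reads for a test, and their summed level was 269.8 to 293 CPM in CBS KO and 237 to 269.6 CPM in WT. The leucocyte marker PTPRC had 1 count over the 3 CBS KO libraries and 0 in WT, and the fibroblast marker ACTA2 had 0 in CBS KO and 1 in WT. COL1A1 and CD68 supplied most of that sum, with CD68 higher (log2 fold change 1.48) and the endothelial PECAM1 lower (-1.76) in CBS KO, and the part of any of these markers in the results was not tested.

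Messenger RNAs of the replication-dependent histones are the main animal mRNAs without a poly(A) tail. Their precursors are cut once, just after a short stem-loop. The stem-loop is held by SLBP, a downstream element pairs with the U7 small nuclear RNA, and U7 carries LSM10 and LSM11, which recruit the cleavage complex of SYMPK, CPSF2 and the endonuclease CPSF3, with CSTF2 nearby. NPAT and CASP8AP2 (FLASH) gather at the histone gene clusters in the histone locus body, and ERI1 is an exonuclease that trims the finished end. The libraries were made from RNA purified on oligo(dT), so a histone mRNA with a proper stem-loop end is expected to be caught poorly, and U7 RNA was not analysed here.

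The stem-loop that SLBP and ERI1 bind is shown for 5 histone genes, because it is the shared element on which these proteins act. In the GENCODE transcripts of GRCh38, a stem of 6 paired bases that opens with GG and closes with CC, around a loop of 4 bases that opens with TT (G-T pairs allowed, transcript strand only), followed the stop codon in 28 of 61 replication-dependent histone genes and in 0 of 11 polyadenylated histone genes. The same form occurred somewhere in 0.693% of all 206694 transcripts. A gene without a match only lacks these letters in its annotated transcripts. The match counted for H2BC15, at chr6:27865778-27865793, lay outside the RefSeq span of that gene. It lay inside the span of H2AC16 (chr6:27865317-27865798). Capitals mark the 16 bases of the stem-loop, to which the coordinates belong, with up to 5 bases on either side.
H2BC21, chr1:149886188-149886203, - strand: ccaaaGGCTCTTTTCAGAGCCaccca
H2AC6, chr6:26124669-26124684, + strand: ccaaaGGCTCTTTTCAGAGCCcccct
H2BC7, chr6:26199968-26199983, + strand: ccaaaGGCTCTTTTAAGAGCCaccca
H4C5, chr6:26205001-26205016, + strand: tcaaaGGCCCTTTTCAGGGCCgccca
H2AX, chr11:119094898-119094913, - strand: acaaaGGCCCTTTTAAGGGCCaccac
The first pair of lines share the commonest stem-loop, which 14 of the 28 genes carried, and 6 different sequences were found in all. The U7 RNA is shown as GENCODE lists it for RNU7-1 at chr12:6943816-6943878 (+ strand, GRCh38, written as DNA), with capitals on the 11 bases at which the ring with LSM10 and LSM11 assembles.
RNU7-1: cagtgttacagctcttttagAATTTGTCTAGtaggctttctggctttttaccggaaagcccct

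All 10 genes passed the test between CBS KO and WT, but 77.2% of all genes tested did so too, so passing does not set them apart. Levels here are CPM scaled with edgeR's TMM factors (trimmed mean of M values), and a gene was called at a Benjamini-Hochberg adjusted p under 0.05 in edgeR's quasi-likelihood test. The 7 genes SLBP, NPAT, CASP8AP2, SYMPK, CPSF2, CPSF3 and CSTF2 fell, against 38.9% of all genes tested. The 3 genes LSM10, LSM11 and ERI1 were called higher, against 38.4% of all genes. The median log2 fold change of the 10 was -0.40, beside -0.01 over all genes. The CPM values of CBS KO and WT did not overlap for 9 of the 10, beside 79.1% of all genes, and CASP8AP2 was the exception. LSM10, LSM11 and ERI1 were separate with CBS KO above (38.9% of all genes) and 6 genes with CBS KO below (40.1%).

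**Figure D1:**
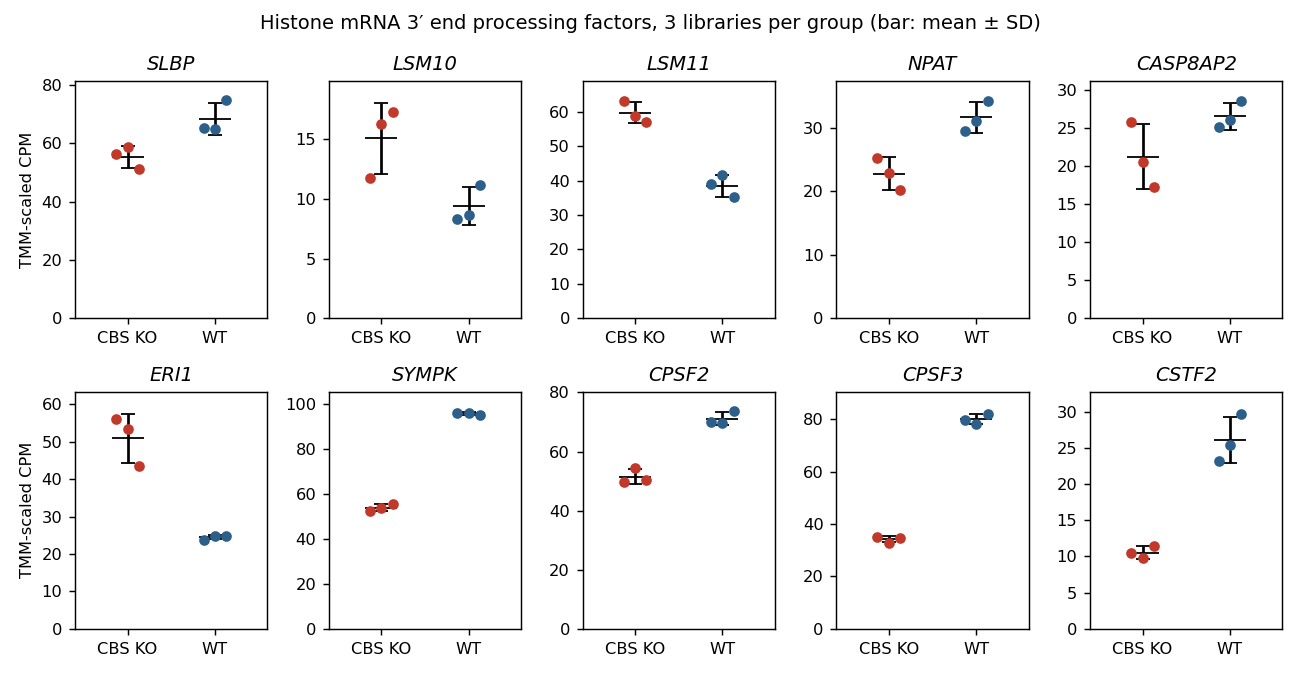
TMM-scaled CPM of each factor in the 3 CBS KO libraries (red, left) and the 3 WT libraries (blue, right), with mean ± SD; every vertical axis starts at 0. The groups lie apart in every panel except CASP8AP2, with CBS KO above WT for LSM10, LSM11 and ERI1 and below it for the other 6.

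LSM10, LSM11 and ERI1 were called higher with TMM, the library total and FPKM, but not with TPM. LSM10 passed only narrowly with the library total (adjusted p = 0.0456, edgeR) and with FPKM (adjusted p = 0.0432, limma). The median of all genes was -0.36 on the log2 scale with the library total and -0.52 with TPM (transcripts per 1e6 transcripts, tested by limma on log2(TPM + 1)). With TPM, LSM10 had a log2 difference of 0.09 (adjusted p = 0.475, limma), LSM11 0.04 (adjusted p = 0.713) and ERI1 0.06 (adjusted p = 0.656), so none of the 3 was called, while each lay 0.61, 0.56 and 0.58 above that fit's median. The share of all genes called higher was 15.4% there, 66.1% were called lower and 81.5% were called in all; with 0.1 in place of 1 added the shares were 15.3%, 65.9% and 81.2%, and the same 7 factors were called lower. With the library total all 10 factors were called, 3 higher and 7 lower, beside 22.8% and 56.8% of all genes and 79.6% in all. FPKM gave the same 3 and 7, beside 22.7%, 56.7% and 79.5% of all genes. DESeq2 also gave 3 and 7, beside 31.6%, 30.4% and 61.9%. Of the 10 genes, 6 were called lower in every one of the 15 alternative fits, beside 30.3% of all genes, and 0 were called higher in every one, beside 12%. CASP8AP2 missed this in 2 fits that left out a library.

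**Figure D2:**
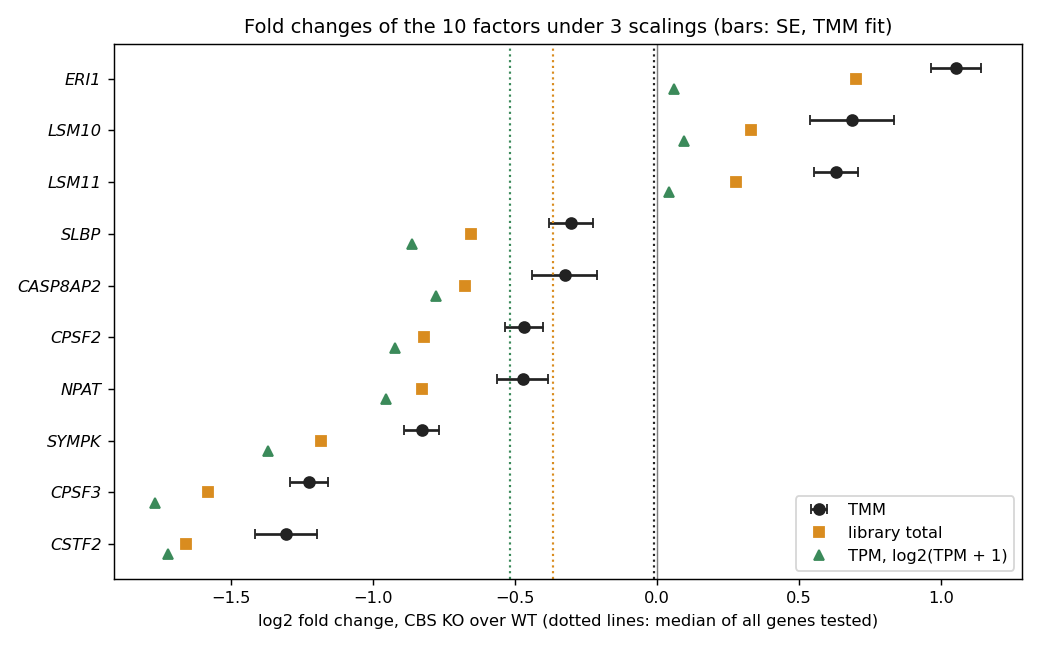
Log2 fold change of CBS KO over WT for each factor with TMM (circles, with SE), the library total (squares) and log2(TPM + 1) (triangles); dotted lines give the median of all genes in each fit, at -0.01, -0.36 and -0.52. ERI1, LSM10 and LSM11 stay to the right of every median line while their triangles lie near 0.

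SLBP and ERI1, which sit on the same stem-loop, moved in opposite directions on the TMM scale. SLBP stays with the histone mRNA from cleavage to translation, and its protein is known to be made and destroyed with S phase. SLBP (Entrez 7884, chr4:1692731-1712319, RefSeq genes on GRCh38.p14 here and below) was at 56.5, 58.6 and 51.3 CPM in the CBS KO libraries, against 65.3, 64.9 and 74.9 CPM in the WT libraries. Every CBS KO library lay under every WT library, by a small margin. The fall was 1.23-fold (-0.30 ± 0.08 SE on the log2 scale, edgeR adjusted p = 0.00183), and it was -0.66 with the library total and -0.86 with TPM, where the medians of all genes were -0.36 and -0.52. With TPM the log2 differences of the 7 genes that fell ran from -1.76 for CPSF3 to -0.78 for CASP8AP2. ERI1 (also known as 3′hExo) trims the last bases after cleavage and acts again in histone mRNA decay. ERI1 (Entrez 90459, chr8:9002897-9100104) stood at 55.9, 53.3 and 43.4 CPM in CBS KO and at 23.8, 24.9 and 24.8 CPM in WT. The CBS KO libraries were spread more widely than the WT libraries, but all lay well above them. The difference was 2.07-fold (1.05 ± 0.09 SE on the log2 scale, edgeR adjusted p = 1.27e-08), the largest rise of the 10 on this scale.

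ERI1 had the largest disagreement of the 10 between counts and TPM values beyond the scaling of the library. The number of reads behind 1 TPM reflects the transcript length that the authors' software assigned to a gene in that library. Set against the median gene of each library, this quantity for ERI1 was 0.30, 0.30 and 0.26 on the log2 scale in CBS KO and 0.0011, -0.21 and -0.13 in WT. The groups did not overlap, and the assigned length was 1.32-fold greater in CBS KO. Among 10526 genes with at least 1 TPM and 50 counts in every library, 1.49% differed by as much. SLBP and NPAT also had groups that did not overlap in this quantity, with far smaller differences. NPAT had the next largest difference among the 10, at 1.03-fold, and 25.7% of genes differed by as much as NPAT. Which ERI1 transcripts the reads came from cannot be read from gene totals.

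The U7-specific pair LSM10 and LSM11 was called higher on the TMM scale by about the same amount. These Sm-like proteins replace SNRPD1 and SNRPD2 in the ring around U7 RNA, and the long N-terminal part of LSM11 holds CASP8AP2. LSM11 (Entrez 134353, chr5:157743712-157760709) had 63.0, 58.9 and 57.1 CPM in CBS KO and 38.9, 41.5 and 35.2 CPM in WT. All CBS KO libraries were higher, and the log2 fold change of 0.63 ± 0.08 (SE) had an edgeR adjusted p of 1.02e-06. LSM10 (Entrez 84967, chr1:36393436-36397908) had the lowest CPM of the 10 in WT. It stood at 11.7, 16.3 and 17.3 CPM in CBS KO and 8.29, 8.61 and 11.2 CPM in WT. The lowest CBS KO library was only just above the highest WT library, with 143 and 205 reads behind them, and the log2 fold change of 0.69 ± 0.15 (SE) had an edgeR adjusted p of 0.000609. In TPM the groups overlapped for both genes. SNRPD1, which LSM10 and LSM11 displace together with SNRPD2, fell to 57.4 ± 5.11 CPM in CBS KO, against 74.4 ± 7.39 CPM in WT (log2 fold change -0.37, adjusted p = 0.000595 by edgeR). SNRPD2 was at 116 ± 28.03 CPM in CBS KO and 91.5 ± 1.81 CPM in WT and did not pass (log2 fold change 0.34, adjusted p = 0.0752 by edgeR), but it was called higher with the replicate block, with a filter at 5 CPM on average and without CBS KO replicate 1. Its value turned to -0.27 with TPM, where it was called lower.

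The mRNAs of NPAT and CASP8AP2, named for the histone locus body, were called lower, CASP8AP2 with overlapping groups. NPAT (Entrez 4863, chr11:108157215-108222638), the coactivator of histone transcription that cyclin E with CDK2 phosphorylates, had 25.3, 22.9 and 20.2 CPM in CBS KO and 29.6, 31.2 and 34.3 CPM in WT. No CBS KO library reached the lowest WT library, and the fall was 1.39-fold (-0.47 ± 0.09 SE on the log2 scale, edgeR adjusted p = 0.000166). CASP8AP2 (Entrez 9994, chr6:89829880-89874436), whose protein FLASH binds LSM11 and helps to bring in the cleavage complex, had 25.7, 20.6 and 17.2 CPM in CBS KO and 25.0, 26.0025 and 28.5 CPM in WT. CBS KO replicate 1 lay inside the WT range. The log2 fold change of -0.32 ± 0.11 (SE) had an edgeR adjusted p of 0.0171, and it was -0.50 without CBS KO replicate 1 (adjusted p = 5.90e-05) and -0.20 without CBS KO replicate 3 (adjusted p = 0.0454). Leaving out CBS KO replicate 2 raised the adjusted p of edgeR to 0.0534 and leaving out WT replicate 3 raised it to 0.0806, so the gene was then not called.

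The cleavage complex held the largest falls. CPSF3 (CPSF73, Entrez 51692, chr2:9423654-9473101), the nuclease that cuts both histone and polyadenylated precursors, had 35.0, 32.8 and 34.8 CPM in CBS KO and 79.6, 78.2 and 82.0 CPM in WT. Each CBS KO value was under 36 CPM and each WT value over 78 CPM, and the fall was 2.34-fold (-1.22 ± 0.07 SE on the log2 scale, edgeR adjusted p = 6.46e-11). CSTF2 (CstF64, Entrez 1478, chrX:100820391-100841520), an RNA-binding subunit of the cleavage stimulation factor, had 10.4, 9.76 and 11.5 CPM in CBS KO and 23.2, 25.4 and 29.6 CPM in WT. The groups lay far apart, and the fall was 2.47-fold (-1.30 ± 0.11 SE on the log2 scale, edgeR adjusted p = 1.17e-08). Among all 13028 genes, 863 fell further than CSTF2 and 991 further than CPSF3.

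SYMPK (symplekin, Entrez 8189, chr19:45815410-45863147), the scaffold that joins the CPSF and CstF subunits, had 52.3, 53.9 and 55.5 CPM in CBS KO and 95.96, 96.1 and 95.1 CPM in WT. Its libraries were the most even of the 10 in both groups, and the fall was 1.78-fold (-0.83 ± 0.06 SE on the log2 scale, edgeR adjusted p = 2.98e-09). CPSF2 (CPSF100, Entrez 53981, chr14:92121969-92172145), the inactive partner of CPSF3, had 49.6, 54.5 and 50.4 CPM in CBS KO and 70.1, 69.6 and 73.7 CPM in WT. The groups were separate, with a fall of 1.38-fold (-0.47 ± 0.07 SE on the log2 scale, edgeR adjusted p = 7.71e-06). CSTF2 has a related intronless copy, CSTF2T, and whether reads of the pair were misassigned was not tested. With both summed, the level was 52.0 ± 1.40 CPM in CBS KO and 96.98 ± 5.48 CPM in WT, 1.86-fold lower.

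The promoters of CPSF3 and CSTF2 are shown, from RefSeq on GRCh38.p14, because these genes fell furthest of the 10 and both hold the letters TTTGGCGC, a form of the E2F-type motif TTTNNCGC. Capitals mark that motif and the ETS-type motif CCGGAAG, each searched on both strands, in the 250 bases before and 50 after the start.
CPSF3, chr2:9423404-9423703, + strand: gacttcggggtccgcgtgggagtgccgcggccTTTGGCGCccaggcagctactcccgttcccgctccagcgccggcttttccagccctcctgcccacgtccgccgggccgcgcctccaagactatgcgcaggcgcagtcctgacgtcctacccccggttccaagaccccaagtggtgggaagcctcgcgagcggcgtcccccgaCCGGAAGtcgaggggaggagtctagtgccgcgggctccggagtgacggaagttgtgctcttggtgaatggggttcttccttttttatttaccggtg
CSTF2, chrX:100820141-100820440, + strand: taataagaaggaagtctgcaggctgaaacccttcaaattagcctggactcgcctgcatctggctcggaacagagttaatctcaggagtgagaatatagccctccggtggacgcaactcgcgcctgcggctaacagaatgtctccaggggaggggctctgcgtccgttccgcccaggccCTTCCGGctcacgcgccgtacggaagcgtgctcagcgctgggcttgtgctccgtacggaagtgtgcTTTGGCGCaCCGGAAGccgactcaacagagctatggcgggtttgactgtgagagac
The E2F-type letters lay at -218 to -211 in CPSF3 and at -6 to 2 in CSTF2, counted from the start as 1 with no base 0. Of the 9 members with a promoter in the table, CPSF3, CSTF2 and CASP8AP2 held TTTNNCGC, which 6.89% of all 35116 promoters hold. CPSF3 and CSTF2 held CCGGAAG, found in 10.3% of all promoters. LSM10, NPAT, CASP8AP2 and CPSF2 held CCAAT, found in 34.6%. No 2 of these motif matches overlapped in the promoters shown, and a match describes the letters and not the binding of a factor.

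Per length, SLBP was the most abundant of the 10 in both groups, at 45.95 ± 5.66 TPM in CBS KO and 84.0 ± 6.95 TPM in WT. In CBS KO the order went on with LSM10 (33.03 ± 4.34 TPM), CPSF3 (21.5 ± 1.72), ERI1 (18.1 ± 3.15), SYMPK (17.5 ± 0.61), LSM11 (11.8 ± 1.33), CSTF2 (5.73 ± 0.36), CPSF2 (5.00 ± 0.38), NPAT (4.65 ± 0.80) and CASP8AP2 (4.06 ± 1.076). CPSF3 and ERI1, ERI1 and SYMPK, CPSF2 and NPAT, and NPAT and CASP8AP2 were neighbours whose ranges overlapped. In WT the order went on with CPSF3 (75.4 ± 1.92 TPM), SYMPK (46.8 ± 0.20), LSM10 (30.97 ± 5.21), CSTF2 (21.3 ± 2.66), ERI1 (17.2 ± 1.65), LSM11 (11.4 ± 0.93), CPSF2 (10.4 ± 0.35), NPAT (9.88 ± 0.83) and CASP8AP2 (7.56 ± 0.53). LSM11 and CPSF2, and CPSF2 and NPAT, overlapped there. LSM10 thus stood above CPSF3 and SYMPK in CBS KO and below them in WT, while its own TPM ranges in the groups overlapped.

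**Figure D3:**
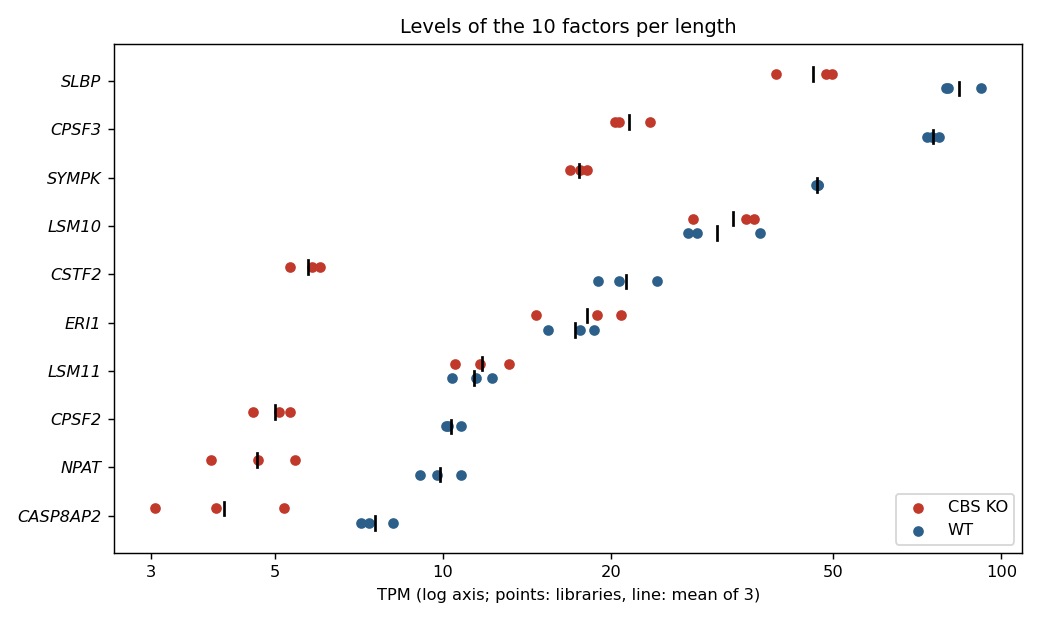
TPM of each factor on a log axis in the CBS KO libraries (red, upper row of each pair) and the WT libraries (blue, lower row), with the mean of 3 as a short line; factors are sorted by their WT mean. SLBP tops both groups, and LSM10, ERI1 and LSM11 are the 3 factors whose groups overlap.

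Ratios between factors that work together were taken within each library, where the scaling of the library drops out. For CPSF2 over CPSF3, partners in the nuclease module, the CPM ratio was 1.42, 1.66 and 1.45 in CBS KO and 0.88, 0.89 and 0.90 in WT. The log2 ratio differed by 0.76. CPM is not set per length, and in TPM CPSF3 was above CPSF2 in both groups, as the levels per length above show. For SLBP over ERI1 the ratio was 1.01, 1.10 and 1.18 in CBS KO and 2.74, 2.61 and 3.02 in WT, a log2 difference of -1.35, or -0.94 with TPM. For SYMPK over CSTF2 the log2 difference was 0.47, and for NPAT over CASP8AP2 it was -0.13, or -0.06 without CBS KO replicate 1. In these 4 pairs the groups did not overlap, and the share over other pairs of genes was not computed. For single genes that share was 79.1%. SLBP and ERI1 each lay apart in opposite directions, so their CPM ratio had to separate. Each of the 4 pairs had p = 0.1 in an exact two-sided permutation test, the smallest p that 3 against 3 libraries allow. After adjustment over the 5 pairs it was 0.125. LSM10 over LSM11 overlapped between the groups, at 0.19, 0.28 and 0.30 in CBS KO and 0.21, 0.21 and 0.32 in WT (log2 difference 0.05, exact permutation p = 1).

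**Figure D4:**
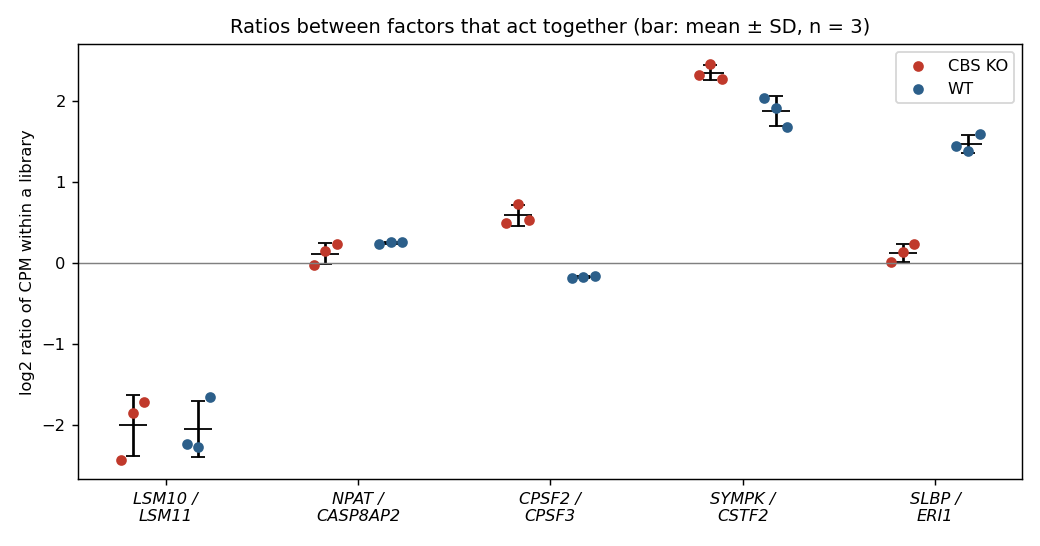
Log2 ratio of CPM between 2 factors within each library, for CBS KO (red, left) and WT (blue, right), with mean ± SD of 3 libraries. The groups lie apart for every pair except LSM10 over LSM11, and most widely for SLBP over ERI1 and CPSF2 over CPSF3.

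Of 15 other cleavage and polyadenylation factors, 10 fell, 3 were called higher and 2 did not pass, beside 38.9% of all genes lower and 38.4% higher. Their median was -0.33 on the log2 scale. CLP1, an RNA kinase of cleavage factor II, fell to 4.15 ± 1.01 CPM in CBS KO, against 13.8 ± 0.99 CPM in WT (3.30-fold). CSTF3, the CstF subunit that binds CSTF2, fell to 14.3 ± 1.14 CPM in CBS KO, against 41.2 ± 1.88 CPM in WT (2.87-fold), and CPSF7, of cleavage factor I, fell 1.96-fold. The 3 higher genes, named after their values were seen, were the poly(A) polymerase PAPOLA (log2 fold change 0.61), NUDT21 of cleavage factor I (0.56) and the poly(A)-binding protein PABPN1 (0.43). With TPM they stood at 0.02, -0.02 and -0.38. With TPM none of them was higher and 12 of the 15 were lower, beside 66.1% of all genes.

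Among 18 partners of U7 and of the locus body, 8 fell, 5 were called higher and 5 did not pass (median -0.13), beside 38.9% of all genes lower and 38.4% higher. With the library total 13 were lower and 1 higher, beside 56.8% and 22.8% of all genes. With TPM 16 were lower and 1 higher (median -0.72), beside 66.1% and 15.4% of all genes. NCBP1, a subunit of the nuclear cap-binding complex, fell to 40.5 ± 2.60 CPM in CBS KO, against 80.02 ± 4.805 CPM in WT, and GON4L fell to 33.1 ± 2.58 CPM in CBS KO, against 64.5 ± 2.73 CPM in WT. CCNE1, the cyclin E1 whose kinase acts on NPAT, was higher, at 40.9 ± 2.04 CPM in CBS KO and 22.6 ± 0.87 CPM in WT (1.81-fold), and it was the only one of the 18 called higher with TPM. Among 16 factors of histone mRNA export, translation and decay, 6 were called higher, 5 fell and 5 did not pass (median 0.07), beside 38.4% of all genes higher and 38.9% lower. With the library total the counts were 2 higher and 9 lower, beside 22.8% and 56.8% of all genes. With TPM they were 1 higher and 12 lower, beside 15.4% and 66.1% of all genes (median -0.50, beside -0.52 over all genes). The decapping enzyme DCP2 rose to 251 ± 27.6 CPM in CBS KO, against 111 ± 3.89 CPM in WT, also with TPM. UPF1, the helicase that SLBP helps to bring to histone mRNA for decay, fell to 90.8 ± 10.4 CPM in CBS KO, against 146 ± 6.57 CPM in WT, and the exosome subunit EXOSC9 fell 1.598-fold.

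Of the 3 genes known for the destruction of SLBP protein, CCNF, the ubiquitin ligase subunit cyclin F, fell to 43.7 ± 0.67 CPM in CBS KO, against 89.5 ± 4.93 CPM in WT. CCNA2 was called higher at 151 ± 5.19 CPM in CBS KO and 101 ± 4.66 CPM in WT, and CDK1 at 248.98 ± 21.5 CPM in CBS KO and 147 ± 4.58 CPM in WT. With TPM, CCNA2 turned to a log2 difference of -0.0030 and CDK1 stood at 0.17, neither called. In the list of 22 DNA replication and S phase genes 16 fell, 3 were called higher and 3 did not pass (median -0.97), beside 38.9% of all genes lower and 38.4% higher. With TPM 19 fell and 1 was higher, beside 66.1% and 15.4% of all genes. MCM2 (-1.88 on the log2 scale), MCM3 (-1.83) and MCM5 (-1.73), all of the replicative helicase, fell furthest, further than any of the 10 factors. The summed level of these 22 genes was 1409 to 1484 CPM in CBS KO and 2194 to 2479 CPM in WT, and the part of cell cycle stage in the falls of SLBP and NPAT was not tested.

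Most tested genes among the substrates, the replication-dependent histones, were called higher. Of 54 replication-dependent histone genes in the table, 35 had enough reads for a test, which a gene can reach through the reads of CBS KO alone. Of those 35, 31 were called higher, 1 lower and 3 did not pass, beside 38.4% of all genes higher and 38.9% lower. With TPM, 35 of 49 tested were higher and 3 lower, beside 15.4% and 66.1% of all genes. The summed level of the 54 genes was 1254 to 1461 CPM in CBS KO and 225 to 232 CPM in WT, with no overlap. H1-2, H2BC21 and H2AC18, named after their values were seen, supplied much of the CBS KO sum. Their means were 469.8, 239.8 and 130.1 CPM in CBS KO and 21.4, 4.48 and 3.47 CPM in WT. H2AC7, H2BC18 and H2BC7 differed most and had 214, 345 and 285 reads in CBS KO against 2, 6 and 7 in WT, so no fold is given. H3C6, named after its value was seen, fell to 2.56 ± 0.35 CPM in CBS KO, against 11.4 ± 1.46 CPM in WT. H2AX, whose mRNA is known to exist in stem-loop and polyadenylated forms, was at 86.05 ± 4.43 CPM in CBS KO and 87.9 ± 4.49 CPM in WT (adjusted p = 0.687, edgeR; -0.61 with TPM, called lower). Reads of histone genes with near-identical copies may be misassigned. H4C11, among the 31 called higher (adjusted p = 0.0446, edgeR), had 27, 32 and 0 reads in WT replicates 1, 2 and 3. H4C12, which did not pass, had 0, 0 and 25 there, and misassignment between these genes was not tested. Of 10 tested histone genes that are always polyadenylated, 6 were called higher and 3 lower, beside 38.4% and 38.9% of all genes. With the library total 4 were higher and 4 lower, beside 22.8% and 56.8% of all genes. With TPM 4 of 11 were higher and 5 lower, beside 15.4% and 66.1% of all genes (median -0.12, beside -0.52 over all genes). Of these polyadenylated histones, H1-10 stood at 492 ± 30.3 CPM in CBS KO and 188 ± 9.12 CPM in WT (log2 fold change 1.39). H3-3B stood at 694 ± 27.2 CPM in CBS KO and 313 ± 6.12 CPM in WT (1.15). A gain of polyadenylated forms, of stem-loop forms caught despite the selection and of total histone mRNA cannot be told apart in these libraries.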

How the data were processed

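Per the labels' protocols, mRNA was purified on oligo(dT) beads and sequenced in paired-end, dUTP-marked libraries on an Illumina NovaSeq. As tools, with no role given, the submitters' processing notes list StringTie 2.1.6, HISAT2 2.2.1, cutadapt 1.9, edgeR and DESeq2, and as build GRCh38. The authors deposited estimated counts (not normalised), FPKM and TPM for 16781 genes; the counting rule and its use of strand were not stated there.

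The estimated counts were rounded. Genes were filtered with filterByExpr, scaled by TMM and tested over all 13028 remaining genes with edgeR's quasi-likelihood test (edgeR 4.0.16, limma 3.58.1, R 4.3.3), with Benjamini-Hochberg adjustment. FPKM and TPM were tested by limma-trend on genes with a mean of at least 0.5, and DESeq2 1.42.0 was an alternative. Ratios between members were compared by exact permutation (scipy 1.17.1). Counting precision follows depth: no member had fewer than 111 counts in a library. In RefSeq, 16732 of the Entrez IDs were found. The test was tested before use on simulated data drawn around the WT means. There 67, 67 and 66 of 12818 genes were changed by 1.5, 2 and 4-fold, evenly up and down. Far more genes were called in the real data, so the simulation does not bear on the choice of scaling.

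The members, gene lists and pairs were chosen with earlier results of these data known. Besides the members, each list's up to 3 called genes with the largest change and at least 5 CPM in the higher group were named; PAPOLA, PABPN1, NUDT21, CSTF2T, H3C6, H2AX, ATM and the marker genes PTPRC, ACTA2 and COL1A1 were named outside this rule. A gene that the rule named is not reported here. Alternatives are given in the closing section. Libraries with the same number were not treated as pairs.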

Additional observations from a re-analysis of the deposited data

How the results depend on the processing

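Fits with the library total, median-ratio factors, no filter, a mean of at least 5 CPM, DESeq2, FPKM, TPM with 1 or 0.1 added, a replicate block, and without each library were compared for the number of genes called, the 10 factors and the lists. The number of genes called was 10060, and 8730 to 10498 in these alternatives, and the number of factors called lower was 6 or 7. The number of factors called higher was 3, but 0 with TPM at either added value, where LSM10, LSM11 and ERI1 lost their calls. With the replicate block all 10 factors were called and 10044 genes in all, and SNRPD2 gained a call; the same-numbered libraries deviated from their group means with correlations of 0.067, 0.0069 and 0.039, and CBS KO replicate 2 correlated best with another number, so the numbers were not taken as pairs. Without single libraries the log2 difference of the LSM10 to LSM11 ratio ranged from -0.09 to 0.26 around 0.05, with -0.02 and -0.091 without CBS KO replicates 2 and 3 and -0.04 and -0.06 without WT replicates 1 and 2; the other 4 ratios kept their sign, though NPAT to CASP8AP2 ranged from -0.19 to -0.06. With a mean of at least 5 CPM, 14 replication-dependent histones were called in place of 32, since fewer were tested. CSTF2 in CBS KO, with 111 to 141 counts, and LSM10, with 143 to 213, have the least depth.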

Other observations

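NPAT starts head to head with ATM, a kinase of the DNA damage response, on chromosome 11. ATM was at 88.6 ± 18.6 CPM in CBS KO and 97.1 ± 2.98 CPM in WT and did not pass with TMM (log2 fold change -0.13, adjusted p = 0.342, edgeR), while it was called lower with TPM (-0.81).

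There were 21 tested replication-dependent histone genes with a stem-loop in a GENCODE transcript. That transcript ran on for more than 100 bases past the stem-loop in 15 of them and ended within 100 bases in 6. RefSeq spans differ from this split for several genes. H2AC6 and H4C5, among the 15, end in RefSeq at 26124690 and 26205021, close to their stem-loop ends at 26124684 and 26205016. H2BC21, also among the 15, does run on in RefSeq, to 149884459 (- strand). H2BC5, among the 6, has a RefSeq span to 26171349, past its stem-loop end at 26158602. Which model the counts used was not stated, so the split describes GENCODE models only. H2BC15 is counted among the 6, though its match lies outside its RefSeq span and inside that of H2AC16. Of the 15, 14 were called higher in CBS KO, with a median log2 fold change of 3.14. Of the 6, 5 were called higher, with a median of 2.03. Beside these stand 31 of the 35 tested replication-dependent histone genes and 38.4% of all genes. A gene can reach the test through the reads of CBS KO alone. H4C11, among the 6, was called higher in only 3 of the 15 alternative fits. The split was chosen after the values were seen, and the difference between the medians was not tested.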
